A study of Homo sapiens with 6 samples.

Results

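The 10 genes described here, ARNTL, CLOCK, PER1, PER2, PER3, CRY1, CRY2, NR1D1, NR1D2 and DBP, are the core of the circadian clock, and were taken by gene symbol from the deposited table. They are 10 of its 26485 gene symbols, and all 10 passed the filter on low counts, with no member count below 94 in any library. The RNA came from EndoC-βH1, an established line of human pancreatic beta cells that releases insulin. All 6 cultures carried the lentiviral vector lentiCRISPRv2, which delivers the Cas9 nuclease and an antibiotic resistance gene, and were grown as stable lines after antibiotic selection. In 3 libraries, labelled Empty with genotype WT, the vector held no guide RNA. In 3 libraries, labelled sgZHX3-3 with genotype ZHX3 KO, it held a single guide against the first coding exon of ZHX3, which encodes a zinc-finger and homeobox repressor of transcription. With 1 guide, loss of ZHX3 and anything else that guide does cannot be told apart. Replicates 1 to 3 of a group are called biological in the titles, which do not say whether they are separately made lines, so the errors and p-values may measure spread between cultures only. The labels give no hour of harvest and no step that sets the cultures to a common clock phase.

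The clock is a feedback loop of transcription. ARNTL (also called BMAL1) and CLOCK form a pair that binds E-box sequences and switches on the period, cryptochrome and REV-ERB genes and DBP; the PER and CRY proteins then return to the nucleus and repress that pair, while the REV-ERB receptors NR1D1 and NR1D2 repress ARNTL through ROR elements. In islets the clock is known for timing insulin release across the day. In cultures whose cells are not in phase, bulk RNA reports the average over all phases, so a level says nothing of rhythm.

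Libraries held 45101454 to 61051884 counts. The RNA of ZHX3 itself was not reduced in the guide libraries but higher (log2 fold change 0.75, standard error 0.0566, edgeR adjusted p = 1.62e-05). An RNA level checks a knockout label only in part, so every direction given here is drawn from the labels alone. Beta cell markers were high: the 10 listed genes summed to 30526 to 38408 CPM in Empty and 35396 to 43494 CPM in sgZHX3-3 (counts scaled to a fixed library total after TMM). Most of this was CHGA, at 23272 to 29447 CPM in Empty and 26620 to 33206 CPM in sgZHX3-3. INS was at 5206 to 7118 CPM over the 6 libraries. The 10 stromal, endothelial and blood cell markers summed to 18.9 to 27.3 CPM, and CDH5 and CD3E among them had no count. Summed markers of other islet cells were at 77.5 to 87.8 CPM in Empty and 67.6 to 76.6 CPM in sgZHX3-3, those of acinar and duct cells (PNLIP at 0) at 80.8 to 90.1 and 93.2 to 98.3 CPM, and the stromal, endothelial and blood cell markers at 18.9 to 23.6 and 25.7 to 27.3 CPM. None of these 3 sums overlapped between the groups, where 32.0% of all tested genes, taken singly, did not overlap either. The sums rest on few genes: 3 of 7, 5 of 7 and 8 of 10 markers, in that order, had a mean below 1 CPM. By edgeR 1 of 6 tested markers of other islet cells was lower. Of the acinar and duct markers 1 of 2 tested was higher, and of the stromal, endothelial and blood cell markers 0 of 3 were called. The beta cell sum, mostly CHGA, did overlap. Of its 10 genes 6 were higher and 0 lower by edgeR (median log2 fold change 0.41), beside 12.1% of all tested genes called in either direction. The part of any of these marker lists in the results on clock genes was not tested. The 10 listed NRF2 target genes, of the oxidative stress response, summed to 1170, 1772 and 1860 CPM in Empty 1, 2 and 3 and to 919, 904 and 789 CPM in the sgZHX3-3 libraries. The 12 listed heat shock chaperones summed to 5278, 6784 and 7263 CPM in Empty 1, 2 and 3 and to 5606, 5844 and 4994 CPM in sgZHX3-3 libraries 1, 2 and 3. Empty 1 thus stood below Empty 2 and 3 in both stress lists, but above every sgZHX3-3 library in the NRF2 sum. By edgeR 9 of the 10 NRF2 genes were lower and 0 higher (median log2 fold change −1.21), beside 12.1% of all tested genes called. The heat shock sums overlapped between the groups, with 1 of 12 genes lower and 0 higher. The part of both lists in the results on clock genes was not tested.

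The promoters of the members were read for the motifs through which clock factors are known to act. RefSeq promoter windows (GRCh38.p14), from 250 bases before to 50 after the start site, were found for all 10 members and searched on both strands for the E-box CACGTG, the cAMP response element TGACGTCA, the D-box as TTATGTAA or TTACGTAA, which DBP binds, and the ROR element as ANTAGGTCA or ANTGGGTCA. Of 35116 promoter windows in the table, 7.26% held the E-box, 1.85% the cAMP element, 1.01% the D-box and 1.28% the ROR element. Among the members, PER1 held 1 E-box, PER2 and PER3 held 1 D-box each, and ARNTL held 1 ROR element. No matches overlapped, and the other 6 windows held none of these letters. Only these exact letters were searched, so variant forms of the motifs and sites outside the windows are not counted. The period gene windows are shown because PER1 was the member that passed the test and PER2 and PER3 are its paralogues, each up to 30 bases after the start, on the gene's own strand, with the matches in capitals. PER1 lies at chr17:8152375-8152654 (minus strand), PER2 at chr2:238288581-238288860 (minus strand) and PER3 at chr1:7784041-7784320 (plus strand).
PER1: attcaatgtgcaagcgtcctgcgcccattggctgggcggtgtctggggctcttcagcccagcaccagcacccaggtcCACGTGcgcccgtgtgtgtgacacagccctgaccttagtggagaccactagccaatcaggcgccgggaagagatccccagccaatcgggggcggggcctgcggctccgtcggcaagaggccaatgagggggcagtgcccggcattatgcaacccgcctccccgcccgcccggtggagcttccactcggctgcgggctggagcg
PER2: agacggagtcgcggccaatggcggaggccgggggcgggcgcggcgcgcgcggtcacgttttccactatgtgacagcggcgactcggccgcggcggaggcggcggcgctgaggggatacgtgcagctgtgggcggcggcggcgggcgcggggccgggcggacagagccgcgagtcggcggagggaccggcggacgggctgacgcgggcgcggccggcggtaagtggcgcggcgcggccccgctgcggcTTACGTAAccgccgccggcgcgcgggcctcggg
PER3: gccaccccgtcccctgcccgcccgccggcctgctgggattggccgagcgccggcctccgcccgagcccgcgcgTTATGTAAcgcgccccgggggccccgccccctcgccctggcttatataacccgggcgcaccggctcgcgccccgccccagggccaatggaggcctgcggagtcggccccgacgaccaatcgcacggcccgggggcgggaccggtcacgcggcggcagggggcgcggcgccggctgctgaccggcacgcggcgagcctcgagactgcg
The E-box of PER1 starts at position −173 from the start site, and the D-boxes start at −3 in PER2 and −177 in PER3. In ARNTL the ROR element, at which REV-ERB receptors act, starts at position 29 of the transcript, shown with its flanks at chr11:13277808-13277837 (plus strand).
ARNTL: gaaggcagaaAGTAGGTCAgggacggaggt
These matches describe letters and are not measurements of binding.

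Most of the clock genes differed little between the groups. Of the 10 members, 1 (PER1) was higher and 0 were lower in the guide group by edgeR (adjusted p below 0.05), where 12.1% of the 16199 genes tested were called, 7.11% higher and 4.98% lower. The share of members called was thus near the background. DESeq2 and limma-voom also called 1 member each, beside 14.2% and 12.3% of all genes, and at an unadjusted p below 0.05 there were 2 (PER1 and NR1D2). The median log2 fold change was 0.08 over the members and −0.0020 over all tested genes, with 7 members above 0 and 3 below. The 95% intervals of 9 members lay within 1.5-fold in either direction; that of DBP, the member with the fewest counts, reached 1.59-fold. The groups did not overlap for 4 members (ARNTL, PER1, PER2 and NR1D1), where this held for 32.0% of all tested genes.

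**Figure D1:**
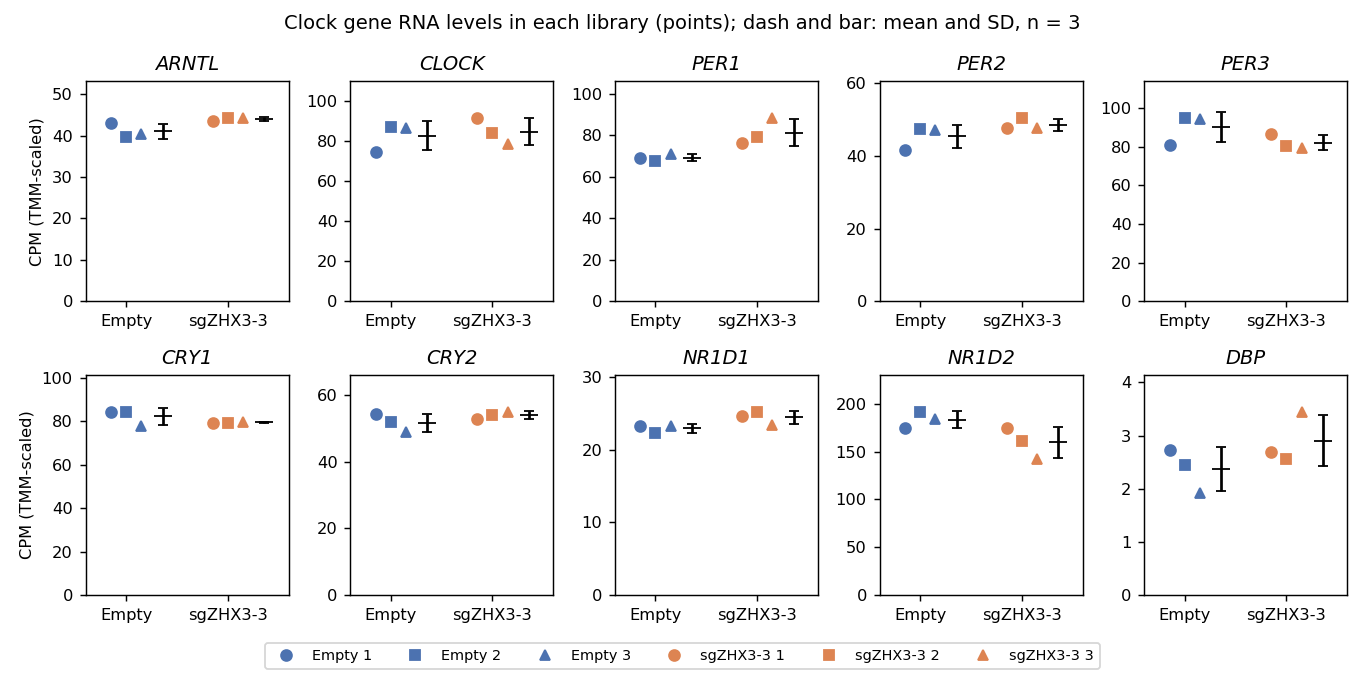
RNA level of each clock gene, as CPM on TMM-scaled library sizes (y axis, from 0, own scale for each gene), in the 3 Empty (blue) and 3 sgZHX3-3 (orange) libraries; symbols give the replicate and the dash with bar the mean and SD. PER1 sits at 67.7 to 70.9 CPM in Empty and 76.4 to 88.4 CPM in sgZHX3-3, while most other genes overlap or nearly touch.

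PER1 (chr17:8140472-8156506 in GRCh38, minus strand), which encodes a clock repressor that responds fast to cAMP and glucocorticoid signals, rose in the libraries labelled sgZHX3-3. It was at 68.9, 67.7 and 70.9 CPM in Empty 1, 2 and 3 and at 76.4, 79.0 and 88.4 CPM in sgZHX3-3 libraries 1, 2 and 3. All guide libraries lay above all Empty libraries, with sgZHX3-3 library 3 the highest. The means were 69.2 ± 1.65 CPM and 81.3 ± 6.32 CPM (SD, n = 3 each), a fold of 1.18 with a 95% interval from 1.07 to 1.29 (log2 fold change 0.23, standard error 0.0627, edgeR adjusted p = 0.0301). In bulk RNA, more cells with the transcript and more transcript per cell cannot be told apart. The call depended on the libraries used: the adjusted p was 0.130 without Empty 2, 0.0905 without Empty 3, 0.0887 without sgZHX3-3 library 2 and 0.0819 without library 3. The share of all genes called fell in the same settings, to 4.83%, 4.01%, 4.31% and 7.65%; it was 20.1% without Empty 1 and 10.7% without sgZHX3-3 library 1, where PER1 passed. Empty 2 and 3 had the highest NRF2 and heat shock sums of all libraries. With both left out, 1 Empty library remained and the log2 fold change was 0.24. With library totals alone as the scale it was 0.20 (edgeR adjusted p = 0.0562, 13.4% of all genes called). PER1 passed with an offset for gene span (0.26, edgeR adjusted p = 0.0169, 11.0% of all genes called).

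The other period genes did not pass, and PER3 lay on the other side of 0. PER2, the partner of PER1 in the repressor complex, was at 41.6, 47.3 and 47.1 CPM in Empty 1, 2 and 3 and at 47.7, 50.4 and 47.5 CPM in sgZHX3-3 libraries 1, 2 and 3. The groups did not overlap, but the gap between the highest Empty and the lowest guide library was small beside the distance of Empty 1 from the other Empty libraries (log2 fold change 0.10, 95% interval −0.04 to 0.24, edgeR adjusted p = 0.353). The value was 0.043 without Empty 1 and 0.22 with Empty 2 and 3 left out. PER3, which modulates the loop without being required for it, was at 81.1, 94.9 and 94.4 CPM in Empty 1, 2 and 3 and at 86.4, 80.3 and 79.2 CPM in sgZHX3-3 libraries 1, 2 and 3. Empty 1 lay among the guide libraries, so the groups overlapped (−0.14, 95% interval −0.29 to 0.0095, adjusted p = 0.207). PER3 passed without Empty 1 (−0.21, edgeR adjusted p = 0.0201), and with Empty 2 and 3 left out instead its value was 0.017. Empty 1 is also the Empty library with the lowest NRF2 and heat shock sums; the part of the stress genes in these differences was not tested. The annotation places UTS2 on the opposite strand over 868 exonic bases of PER3, and UTS2 had no count in any library.

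The activators did not pass. ARNTL was at 43.1, 39.6 and 40.4 CPM in Empty 1, 2 and 3 and at 43.5, 44.3 and 44.1 CPM in sgZHX3-3 libraries 1, 2 and 3. The groups did not overlap, although Empty 1 came within 0.5 CPM of the guide libraries (log2 fold change 0.10, 95% interval −0.03 to 0.23, edgeR adjusted p = 0.289). CLOCK, its DNA-binding partner, was at 74.3, 87.0 and 86.6 CPM in Empty 1, 2 and 3 and at 91.5, 84.0 and 78.3 CPM in sgZHX3-3 libraries 1, 2 and 3. The ranges of the groups overlapped widely, and the value was 0.03 (95% interval −0.13 to 0.19, adjusted p = 0.814), changing sign when Empty 1 (−0.036) or sgZHX3-3 library 1 (−0.027) was left out or when libraries were scaled by totals (−0.0036).

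The cryptochromes, which block the activator pair directly, did not pass, and their groups overlapped. CRY1 was at 84.3, 84.6 and 78.0 CPM in Empty 1, 2 and 3 and between 79.3 and 79.9 CPM in the sgZHX3-3 libraries. All guide libraries fell inside the Empty range (log2 fold change −0.05, 95% interval −0.17 to 0.07, edgeR adjusted p = 0.597). CRY2 was at 54.4, 52.0 and 49.0 CPM in Empty 1, 2 and 3 and at 52.8, 54.2 and 55.1 CPM in sgZHX3-3 libraries 1, 2 and 3. The groups overlapped (0.06, 95% interval −0.06 to 0.19, adjusted p = 0.532), and with Empty 2 and 3 left out the value was −0.0075.

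The REV-ERB receptors lay on opposite sides of 0, and neither passed. NR1D2 (REV-ERBβ; chr3:23945260-23980618 in GRCh38, plus strand) was at 174, 192 and 184 CPM in Empty 1, 2 and 3 and at 175, 161 and 142 CPM in sgZHX3-3 libraries 1, 2 and 3. The groups overlapped only through Empty 1 and sgZHX3-3 library 1, and sgZHX3-3 library 3 was the lowest. The means were 183 ± 8.86 CPM and 159 ± 16.4 CPM (SD, n = 3 each), a log2 fold change of −0.20 with a 95% interval from −0.36 to −0.05 that is not adjusted for the number of genes (edgeR adjusted p = 0.0815). It passed without Empty 1 (−0.24, adjusted p = 0.0324), without sgZHX3-3 library 1 (−0.28, 0.0300) and with library totals alone (−0.24, 0.0483), but was at −0.13 (0.226) without sgZHX3-3 library 3. NR1D1 (REV-ERBα) was at 23.2, 22.2 and 23.3 CPM in Empty 1, 2 and 3 and at 24.7, 25.2 and 23.5 CPM in sgZHX3-3 libraries 1, 2 and 3. The groups did not overlap but nearly touched at Empty 3 and sgZHX3-3 library 3 (0.09, 95% interval −0.05 to 0.24, adjusted p = 0.390).

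DBP, the PAR bZIP factor that carries the clock's output to D-box genes, was the least abundant member. Empty 1, 2 and 3 held 128, 145 and 94 counts (2.74, 2.45 and 1.91 CPM), while sgZHX3-3 libraries 1, 2 and 3 held 120, 128 and 208 (2.68, 2.57 and 3.45 CPM). The groups overlapped, and Empty 3 and sgZHX3-3 library 3 marked the extremes (log2 fold change 0.30, 95% interval −0.07 to 0.67, edgeR adjusted p = 0.279). The value was 0.15 without sgZHX3-3 library 3, 0.18 without Empty 3 and 0.094 with Empty 2 and 3 left out.

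**Figure D2:**
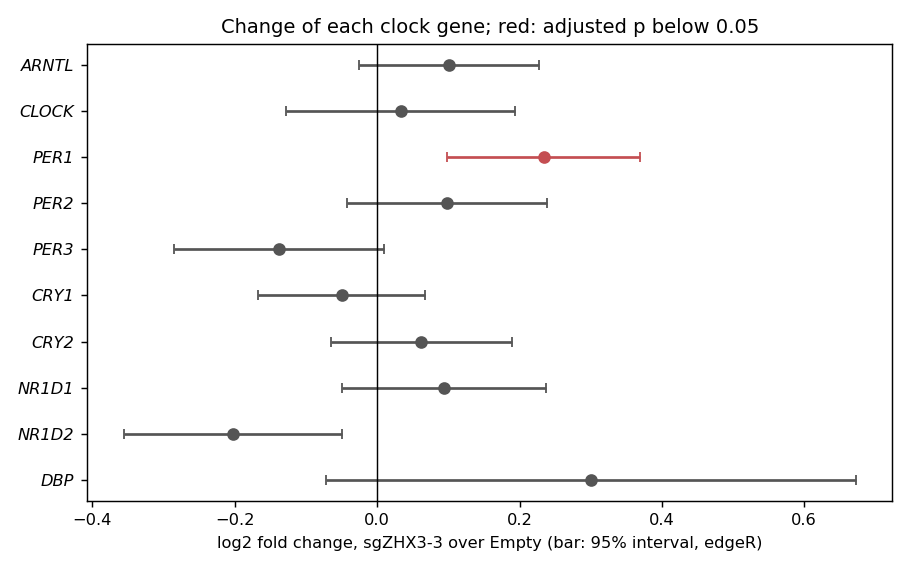
Log2 fold change of each clock gene in sgZHX3-3 over Empty (x axis), with the 95% interval from edgeR as a bar, not adjusted for the number of genes. PER1 (red, 0.23) passed at an adjusted p below 0.05; NR1D2 lies at −0.20 and the widest interval is that of DBP.

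Some members share a locus with other genes, and whether the counting used strand is not stated. NR1D1 (chr17:40092787-40100725 in GRCh38, minus strand) shares 263 exonic bases with THRA, a thyroid hormone receptor gene on the other strand. THRA rose (log2 fold change 0.38, edgeR adjusted p = 0.0249, up to 0.119 with 1 library left out), and was at 0.16 with Empty 2 and 3 left out. DBP (chr19:48630030-48637438, minus strand) shares 661 of its 2875 exonic bases with the sphingosine kinase gene SPHK2. SPHK2 was at 0.29 (edgeR adjusted p = 0.0490, up to 0.206 with 1 library left out), and at 0.088 with Empty 2 and 3 left out. The values of NR1D1 and DBP are uncertain because of these shared bases. PER1 shares 30 exonic bases with AC129492.3, a gene model on the same strand that was not matched to the table, and holds the microRNA gene MIR6883 (3 to 17 counts) outside its exons. On the other strand, and also not matched to the table, Z98884.1 shares 376 exonic bases with PER3, AC012485.1 188 with PER2, AC078929.1 94 with CRY1 and AC024243.1 27 with CLOCK. Reads from these cannot be told apart from those of PER3, PER2, CRY1 and CLOCK if strand was not used. CLOCK overlaps TMEM165 (−0.09, adjusted p = 0.347) and NR1D2 overlaps NKIRAS1 (−0.21, adjusted p = 0.0815) on the other strand, both outside exons. The remaining overlaps, RN7SKP151 in ARNTL, RN7SKP30 and RF00019 in CLOCK and AC012485.3 in PER2, also lie outside shared exons and were not matched to the table.

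Per kilobase of exon, the order of levels was led by NR1D2 and closed by DBP. In Empty, CPM per kilobase of the GENCODE 29 exon union was 34.9 ± 1.69 for NR1D2, 25.2 ± 1.14 for CRY1, 13.9 ± 1.21 for PER3, 13.6 ± 0.600 for ARNTL, 12.7 ± 0.303 for PER1, 11.9 ± 0.619 for CRY2, 8.27 ± 0.213 for NR1D1, 7.29 ± 0.639 for CLOCK, 7.098 ± 0.505 for PER2 and 0.823 ± 0.145 for DBP (SD, n = 3 each). NR1D2, CRY1 and DBP each stood clear of their neighbours over all 6 libraries. PER3, ARNTL, PER1 and CRY2 formed a run in which the ranges of neighbours over the 6 libraries overlapped, as did NR1D1, CLOCK and PER2. In sgZHX3-3, PER1 was at 14.9 ± 1.16 and PER3 at 12.6 ± 0.595 on this scale, the reverse of their order in Empty, where their ranges overlapped. These levels rest on a single gene model, in which the exon union of CLOCK spans 11336 bases.

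Ratios within pairs of related members do not depend on how libraries are scaled, and 4 of the 6 pairs examined differed between the groups without overlap. The pairs were chosen after the values had been seen, 3 of them share period genes, and 30.3% of all pairs of tested genes also did not overlap. The log2 count ratio of PER1 to PER3 was −0.24, −0.49 and −0.41 in Empty 1, 2 and 3, against −0.18, −0.02 and 0.16 in the guide libraries 1, 2 and 3. Each guide library lay above each Empty library, with library 3 the highest, and the means differed by 0.36. The log2 ratio of NR1D1 to NR1D2 was −2.91, −3.11 and −2.98 in Empty 1, 2 and 3, against −2.83, −2.67 and −2.60 in the guide libraries 1, 2 and 3, a difference of 0.30. Here too the guide libraries all lay above the Empty libraries. PER2 to PER3 differed by 0.24, from −0.99 ± 0.0243 to −0.76 ± 0.0952, and CRY1 to CRY2 by −0.11, from 0.67 ± 0.0349 to 0.56 ± 0.0260 (SD, n = 3 each). ARNTL to CLOCK (0.07) and PER1 to PER2 (0.13) overlapped between the groups. A two-sided exact permutation test gave p = 0.1 for each of the 4 pairs without overlap, the smallest value that 3 against 3 allows (0.15 with Benjamini-Hochberg adjustment over the 6 pairs), so no ratio could pass.

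**Figure D3:**
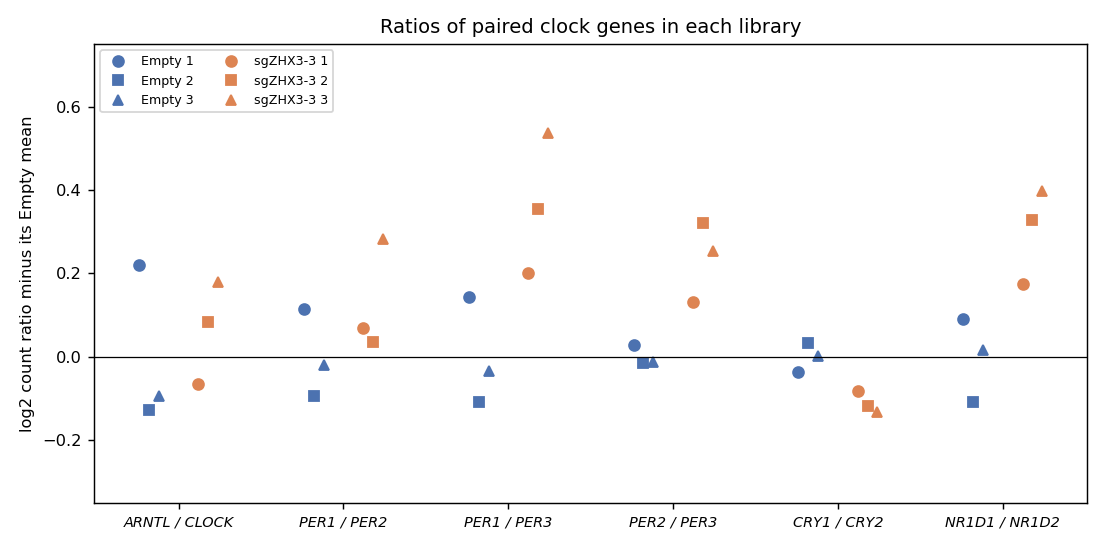
Log2 ratio of the counts of paired clock genes in each library, minus the mean ratio of the Empty libraries (y axis), for 6 pairs (x axis); blue points are Empty, orange points sgZHX3-3, symbols the replicate. The groups separate for PER1 to PER3, PER2 to PER3, CRY1 to CRY2 and NR1D1 to NR1D2, and overlap for ARNTL to CLOCK and PER1 to PER2.

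The genes whose profile over the 6 libraries was most like that of PER1 were not clock genes, which are few among the genes compared. They were picked as the nearest of many, so nothing about the clock follows. Likeness was the root mean square difference of log2 CPM, centred on each gene's mean, among genes of at least 10 CPM. It was 0.0263 for MLLT1, a subunit of the super elongation complex, 0.0276 for NPRL3, of the GATOR1 complex that restrains mTORC1, and 0.0291 for JADE2, where the median over all genes compared was 0.159. Among the members the closest pair was ARNTL and CRY2 (0.0399).

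Other clock genes moved in both directions. Of 59 listed genes that are no members, 56 were tested, and 6 were higher and 4 lower (edgeR), or 17.9% called against 12.1% of all tested genes, with a median log2 fold change of 0.012. With Empty 2 and 3 left out 1 Empty library remains, so calls from that fit are not counted. FBXL21P was not matched to the table, and KLF9 and ZBTB16 were below the filter on low counts.

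Of the other clock transcription factors 1 of 10 was higher and 0 were lower, a share near the 12.1% of all tested genes called. BHLHE41 (DEC2), a repressor that competes at E-boxes, was at 38.6, 40.6 and 41.4 CPM in Empty 1, 2 and 3 and at 50.3, 49.9 and 43.1 CPM in sgZHX3-3 libraries 1, 2 and 3. The groups did not overlap, with sgZHX3-3 library 3 closest to Empty (log2 fold change 0.25, edgeR adjusted p = 0.0362). The edgeR adjusted p of BHLHE41 was up to 0.168 with 1 library left out and 0.0666 with an offset for gene span. Its log2 fold change was 0.31 with Empty 2 and 3 left out. The D-box repressor NFIL3 was at −0.22 (adjusted p = 0.0575) and passed without Empty 1 (0.0105), with library totals, without an expression filter and with DESeq2. The paralogues NPAS2 of CLOCK (0.22, 0.449) and ARNTL2 of ARNTL (−0.13, 0.238) did not pass. Of the genes of ROR receptors, which activate ARNTL, RORA was at −0.10 (0.441) and RORB at 0.19 (0.289). RORA passed without Empty 1 (0.0459) and with an offset for gene span (0.0198). The PAR bZIP factors TEF (0.05) and HLF (0.04), and BHLHE40 (0.03) and CIART (0.13), did not pass.

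Of 11 cofactors of the clock repressors, 1 was higher and 1 lower, or 18.2%, against 12.1% of all tested genes called. TBL1X, a subunit of the corepressor complex through which REV-ERB receptors silence genes, was at 175, 168 and 164 CPM in Empty 1, 2 and 3 and at 222, 225 and 210 CPM in sgZHX3-3 libraries 1, 2 and 3. All guide libraries lay above all Empty libraries (log2 fold change 0.37, standard error 0.0523, edgeR adjusted p = 0.000800), and 14 of the 15 alternative settings kept the call. The remaining setting, with Empty 2 and 3 left out, leaves 1 Empty library, and its log2 fold change was 0.32. NCOR1 (0.18, 0.0738), HDAC3 (0.04), TBL1XR1 (−0.04) and GPS2 (0.0046) of the same complex did not pass. TIPIN, which pairs with TIMELESS at replication forks, fell by 0.37 (edgeR adjusted p = 0.0181, up to 0.0927 with 1 library left out). With Empty 2 and 3 left out TIPIN was at −0.30.

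Of 15 tested kinase and ubiquitin genes of clock proteins, 1 was higher and 0 were lower, or 6.67%, against 12.1% of all tested genes called. HUWE1, a ligase linked to REV-ERBα turnover, was at 293, 371 and 336 CPM in Empty 1, 2 and 3 and at 391, 408 and 404 CPM in sgZHX3-3 libraries 1, 2 and 3. The groups did not overlap, with Empty 1 the lowest (log2 fold change 0.27, edgeR adjusted p = 0.0302, up to 0.119 with 1 library left out). With Empty 2 and 3 left out HUWE1 was at 0.45. The casein kinase gene CSNK1D was at 0.03 (adjusted p = 0.814); CSNK1E is listed below 0.6 CPM in each library and shares its locus with the readthrough gene LOC400927-CSNK1E, so its value is uncertain.

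Of 9 tested output genes, 1 was higher and 2 lower, or 33.3%, against 12.1% of all tested genes called. WEE1, a mitotic kinase gene driven from E-boxes, was at 172, 203 and 211 CPM in Empty 1, 2 and 3 and at 136, 144 and 140 CPM in sgZHX3-3 libraries 1, 2 and 3. All guide libraries lay below all Empty libraries (log2 fold change −0.48, standard error 0.0704, edgeR adjusted p = 0.00107). WEE1 passed whichever library was dropped, and was at −0.30 with Empty 2 and 3 both left out. KLF10 was at −0.41 (0.0203) and KLF15 at 0.71 (0.0139), the latter from 2.60 to 4.21 CPM; with 1 library left out their adjusted p reached 0.115 and 0.0755. With Empty 2 and 3 left out KLF10 was at −0.16 and KLF15 at 0.40.

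The list of inputs to the period genes also holds glucocorticoid targets and ID2, and of its 11 tested genes 2 were higher and 1 lower. That is 27.3%, against 12.1% of all tested genes called. The CREB coactivator CRTC1 was at 68.6, 61.2 and 62.0 CPM in Empty 1, 2 and 3 and at 72.2, 75.2 and 82.2 CPM in sgZHX3-3 libraries 1, 2 and 3 (log2 fold change 0.26, edgeR adjusted p = 0.0231). SIK1, a kinase that keeps CRTC proteins out of the nucleus, was at 11.9, 10.8 and 11.4 CPM in Empty 1, 2 and 3 and at 9.46, 9.10 and 8.43 CPM in sgZHX3-3 libraries 1, 2 and 3 (−0.34, 0.0271). Neither gene's groups overlapped, and their adjusted p reached 0.119 and 0.106 with 1 library left out. With Empty 2 and 3 left out CRTC1 was at 0.16 and SIK1 at −0.41. ID2, an inhibitor of bHLH factors, rose by 0.35 (edgeR adjusted p = 0.00396) and passed whichever library was dropped. It was at 0.21 with Empty 2 and 3 both left out. CREB1 (−0.20, 0.0760), NR3C1, the glucocorticoid receptor gene (0.02), and the glucocorticoid targets TSC22D3 (0.02) and FKBP5 (−0.14) did not pass.

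**Figure D4:**
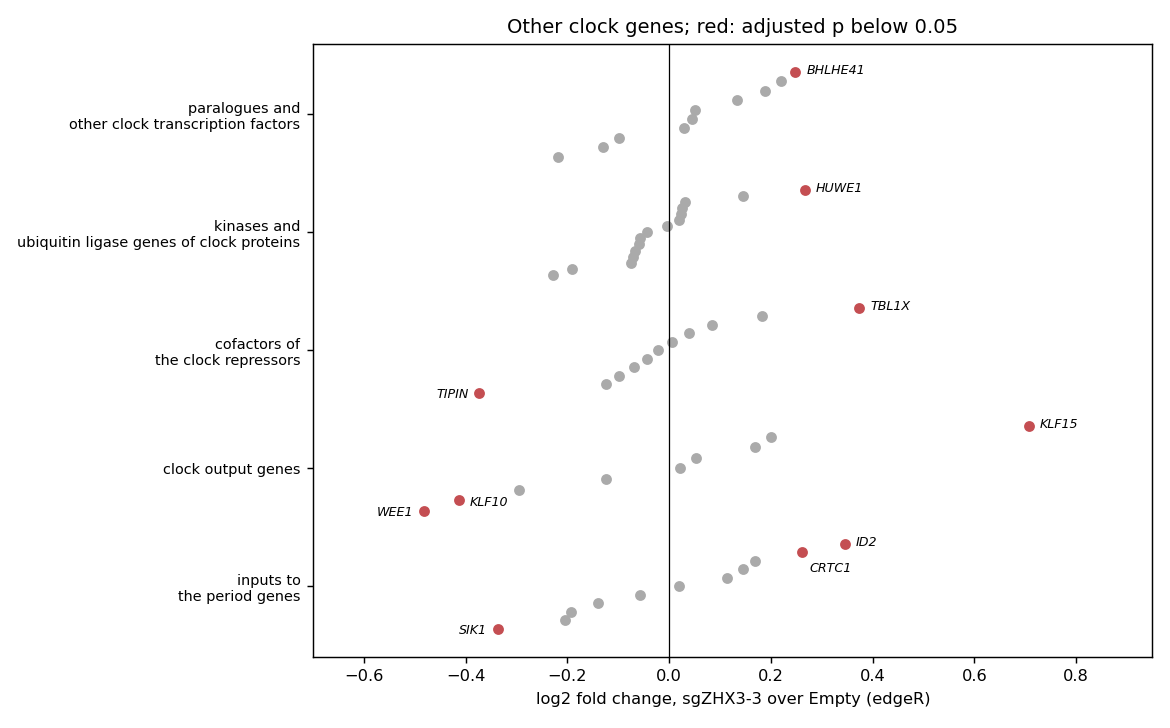
Log2 fold change in sgZHX3-3 over Empty (x axis) of the 56 tested clock genes that are no members, by list (y axis; height within a list only separates points). The 10 red, named genes passed at an adjusted p below 0.05, from WEE1 at −0.48 to KLF15 at 0.71; grey genes did not.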

How the data were processed

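The 6 libraries of EndoC-βH1 (3 Empty, 3 sgZHX3-3) came from a stranded kit, per the labels. STAR, featureCounts and hg38 are named in the submitters' processing notes; their versions, the annotation and the strand setting were not stated. The table the authors deposited holds unnormalised counts, 1 column per library per the file headers, with 45101454 to 61051884 counts per library. All else was computed from them. Genes were kept by filterByExpr (minimum count 10, minimum total 15; 16199 genes), scaled by TMM and tested with edgeR 4.0.16 (R 4.3.3), robust quasi-likelihood, group as the only term, Benjamini-Hochberg adjustment over all tested genes, called at 0.05. Intervals are 95% intervals from the fit. CPM uses TMM library sizes. Gene positions and exon lengths are from GENCODE 29 (GRCh38), which matched 90.2% of symbols.

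Alternatives were RLE factors, library totals, no filter, 1 CPM in 3 libraries, DESeq2 1.42.0, limma-voom (limma 3.58.1), a replicate block, single libraries left out, Empty 2 and 3 left out, and an offset for gene span. Leaving out Empty 2 and 3 leaves 1 Empty library, so only log2 fold changes are read from that fit. The members, lists and alternatives were chosen with earlier results of these data known. Some clock genes are not reported here and are left out of the lists and their counts, but not of the fit. The text names all members, genes overlapping them, called genes of the other clock lists, all other clock transcription factors, and the 3 profiles nearest to a called member; the other list genes named with values were chosen after these were seen, as were the pair ratios. Counts were simulated for this comparison (16084 genes), with 63 genes changed 1.25-fold, 67 changed 1.5-fold and 68 changed 2-fold. The fit recovered 44.4%, 76.1% and 89.7% of these, with 14 of 154 calls false. A smaller share of genes was changed than was called in the data, so these shares do not give the sensitivity of the comparison itself.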

Additional observations from a re-analysis of the deposited data

How the results depend on the processing

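PER1 kept its sign in all 15 alternatives and its call in 8 of them. It lost the call with library totals alone (log2 fold change 0.20) or a replicate block (0.23, adjusted p = 0.0746 by edgeR). The call was also lost with any 1 library left out other than Empty 1 and sgZHX3-3 library 1 (0.17 to 0.28 over single libraries left out). With Empty 2 and 3 left out PER1 was at 0.24, but 1 Empty library remains there and its call is not read. NR1D2 gained a call with library totals (−0.24) and ranged from −0.28 to −0.13 with single libraries left out, PER3 from −0.21 to −0.10 (0.017 with Empty 2 and 3 left out), and CLOCK from −0.036 to 0.086 (−0.0036 with library totals). CRY2 was at −0.0075 with Empty 2 and 3 left out. Members called were 0 higher and 1 lower with library totals, 0 and 0 with the replicate block, and from 0 to 1 higher and 0 to 2 lower with single libraries left out. Other clock genes called were 2 higher and 1 lower with the replicate block, and from 2 to 8 higher and 1 to 8 lower with single libraries left out. Over all genes 1151 were higher and 807 lower with all libraries, and 904 and 1272 with library totals. These counts were 516 and 239 with the replicate block, and from 474 to 1792 and 184 to 1499 with single libraries left out. The fit with Empty 2 and 3 left out gave 209 and 40, but 1 Empty library remains there, so these counts are not read. Genes that did not pass changed sign: with Empty 2 and 3 left out RORA (0.095) and TEF (−0.12), with library totals BHLHE40 (−0.0076), and with single libraries left out TEF (−0.011 to 0.15), HLF (−0.041 to 0.13) and BHLHE40 (−0.052 to 0.10). The cause of these changes was not tested. With library totals the median log2 fold change of all genes was −0.04. The replicate numbers did not pair the libraries: the deviations of same-numbered libraries correlated at −0.29, 0.16 and −0.27 across genes, so the block result describes a shared number only. With 3 libraries a group, the smallest fold change simulated was called in 44.4% of the genes given it. A smaller share of genes was changed there than was called in the data, so this does not give the sensitivity here. How many changes of the size seen in most members were missed was not tested. Members that did not pass are thus not shown to be unchanged.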
